A study of Homo sapiens with 8 samples.

Results

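A pair of treated states of A549, a human lung adenocarcinoma cell line, were set directly against each other: cells carrying a short hairpin RNA against AXL (AXL_shRNA) and cells given 40 nM of the small molecule TP-0903 (TP0903). The comparison used 4 of the 8 RNA sequencing libraries of the series, chosen by their titles: AXL_shRNA P15 and P3, and TP0903 P17 and P4. The other 4 libraries were controls, namely a control hairpin (control_shRNA P15 and P3) and cells with neither a hairpin nor TP-0903 in their label (control P17 and P4). They serve as reference levels, and whether each state started from them is not known. List levels given relative to control use the mean of control P17 and P4 for every group, also for the hairpin libraries. High P numbers were matched with high (P15 with P17) and low with low (P3 with P4). The sources used here do not say what P stands for, how control cells were treated, how long exposure lasted, which hairpin sequences were used or whether hairpin cells were 1 clone or a pool. The hairpin libraries carry a hairpin vector that the drug libraries lack, and the drug libraries a compound that the hairpin libraries lack, so a direct difference cannot be told apart into AXL, hairpin, compound and P number. The labels call the samples biological replicates without naming separate cultures, so p-values measure the spread between these libraries.

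AXL is a receptor tyrosine kinase of the TAM family, whose other members are TYRO3 and MERTK. The ligands GAS6 and PROS1 bridge these receptors to phosphatidylserine on membranes, and AXL signalling is best known in carcinoma for cell motility, survival and resistance to drugs. An shRNA is processed into a short guide RNA that lowers transcripts it pairs with, whereas TP-0903 occupies the ATP pocket of AXL and of other kinases.

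Library totals ran from 30067011 to 44217023 expected counts, and 17676 genes passed the expression filter. Levels are CPM, counts scaled to library size, always in the order P15 and P3 for hairpin libraries and P17 and P4 for the others. Differences are log2 AXL_shRNA minus TP0903. KRT8 and KRT18, keratins of simple epithelia, and AKR1B10, an aldo-keto reductase abundant in A549, were high in all 8 libraries (AKR1B10 from 1451 to 9142 CPM). The surfactant gene SFTPB and the lung lineage factor NKX2-1 stayed under 0.5 CPM. Of 14 leukocyte and blood markers, 7 to 9 had any count in the 4 compared libraries and 3 or 4 reached 1 CPM. Their summed level was 26.0 to 28.1 CPM in AXL_shRNA and 14.5 to 18.98 CPM in TP0903, and the leukocyte-defining gene PTPRC was between 0 and 0.0617 CPM. Of 5 tested, 2 were called higher in AXL_shRNA and 0 lower. ITGAM was at 7.004 and 7.664 CPM in AXL_shRNA against 1.944 and 2.197 CPM in TP0903. Of 9 endothelial markers, 1 or 2 reached 1 CPM (summed level 16.9 to 26.7 CPM in AXL_shRNA and 19.3 to 23.1 CPM in TP0903), with KDR and EMCN at 0 in each library. Of 2 tested, 0 were called. CDH5 was at 9.57 and 2.983 CPM in AXL_shRNA against 1.605 and 0.4687 CPM in TP0903. EGFL7 went the other way, at 16.66 and 13.44 CPM against 21.2 and 18.57 CPM.

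The targeted gene checks the labels. AXL (chr19:41219203-41261766, plus strand, GRCh38) was at 55.4 and 62.96 CPM in AXL_shRNA, 279.6 and 153 CPM in TP0903, 85.1 and 139 CPM in control_shRNA and 216 and 105 CPM in control. The groups compared did not overlap, and AXL was 3.66-fold lower in AXL_shRNA (log2 difference -1.87, SE 0.42, adjusted p = 0.016). That call was lost, with the adjusted p in brackets, without AXL_shRNA P15 (0.083), AXL_shRNA P3 (0.062) or TP0903 P17 (0.084). Set against the difference of the controls, the drop was -1.36 and did not pass the test (adjusted p = 0.14). TYRO3, at 8.94 and 9.43 CPM in AXL_shRNA against 8.21 and 9.70 CPM in TP0903, lay within 2-fold (95% interval of the log2 difference -0.48 to 0.55), as did the ligand GAS6 (-0.96 to 0.30). For MERTK (3.59 and 8.998 CPM in AXL_shRNA against 1.51 and 4.31 CPM in TP0903) and PROS1 (24.8 and 27.9 CPM in AXL_shRNA against 12.99 and 35.7 CPM in TP0903) libraries of the same group differed by more than 2-fold, in both groups for MERTK and in TP0903 for PROS1. Intervals ran from -0.72 to 2.95 and from -1.04 to 1.27. MERTK was higher in AXL_shRNA in both pairs. It was not called in the main fit, but was called higher in a fit that also held P number in 2 levels.

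Across all tested genes, 5307 differed between both states at an adjusted p under 0.05 (30%), 2644 higher in AXL_shRNA (15%) and 2663 lower (15.1%). Of these, 1375 were more than 2-fold higher and 1096 more than 2-fold lower, and the count past 8-fold was 343 higher against 34 lower. The 95% interval of the difference lay inside 2-fold for 7700 genes (43.6%). All 5307 called genes had AXL_shRNA on 1 side of TP0903 in both pairs. With 2 libraries a group, a gene that passes the test nearly has to be separated in this way, so this is not separate evidence. The shares of 15% higher and 15.1% lower are the background for the counts of every gene list below. The controls, control_shRNA minus control, differed at 1618 genes (9.15%), 541 higher (3.06%) and 1077 lower (6.09%). The direct difference differed from that of the controls at 3645 genes (20.6%), tested as a difference of differences. Between the direct difference and that of the controls, which share no library, 321 genes were called the same way (6.05% of the direct calls, 19.8% of the control calls) and 338 the opposite way (6.37% and 20.9%). The direct count fell to 2913 without AXL_shRNA P15, 2450 without TP0903 P17 and 2760 without TP0903 P4. On length-scaled TPM values it was 4997, split into 1589 higher and 3408 lower, with the median of all genes moved to -0.12.

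**Figure D1:**
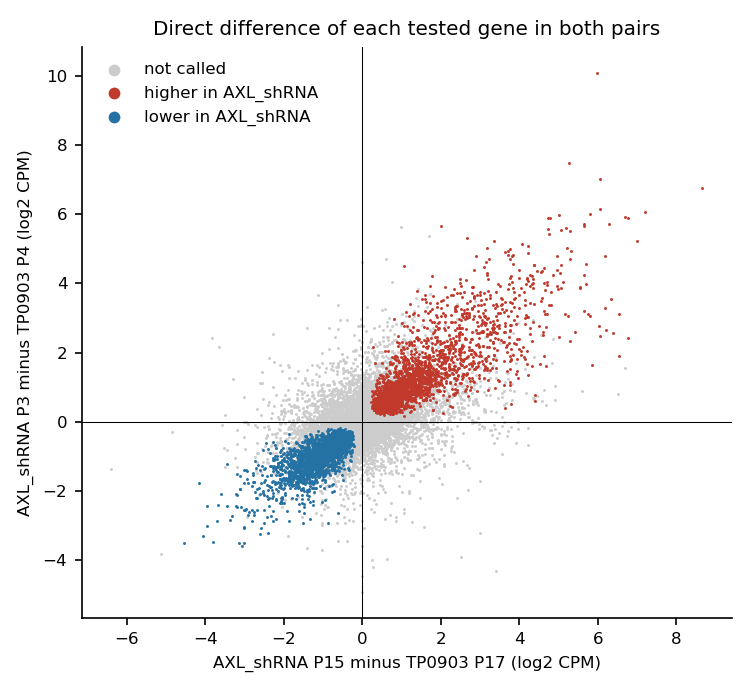
Each point is 1 of 17676 tested genes, with log2 CPM of AXL_shRNA P15 minus TP0903 P17 on the x axis and of AXL_shRNA P3 minus TP0903 P4 on the y axis. Red points were called higher in AXL_shRNA (2644) and blue points lower (2663). The rises reach past 6 on both axes, whereas few falls pass -3.

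Both states were low in mitosis genes, and to nearly the same level. The 71 genes of the G2/M and mitosis list (cyclins, mitotic kinases, kinesins, centromere and spindle checkpoint proteins) had a median log2 level, relative to the mean of both control libraries, of -2.85 and -2.48 in AXL_shRNA and -2.60 and -2.82 in TP0903. The levels of the 4 libraries interleaved. In the direct comparison 7 members were higher, 4 lower, 42 lay inside 2-fold, and the median difference was -0.06, against 0.00 over all tested genes. With 11 of 71 called, the share was below the 30% of all genes. Single libraries carried many of these calls (4 higher without AXL_shRNA P15, 3 without AXL_shRNA P3, 1 without TP0903 P17, 2 without TP0903 P4), the 4 lower ones too (0 lower without AXL_shRNA P15, AXL_shRNA P3 or TP0903 P17, 2 without TP0903 P4). The balance turned on TPM values (2 higher and 9 lower on log2(TPM + 1), 8 higher and 7 lower with DESeq2). The cells with a control hairpin were as low (-3.09 and -2.89), and 70 of 71 members were called lower in control_shRNA than in control. Of the 8 libraries, the 2 labelled control were thus the only ones high in these genes.

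TOP2A, the topoisomerase that untangles sister chromatids, was at 87.8 and 112 CPM in AXL_shRNA against 116 and 99.3 CPM in TP0903, against 944 and 656 CPM in control. Its interval was -0.65 to 0.43, inside 2-fold. The proliferation marker MKI67 was at 30.3 and 26.9 CPM in AXL_shRNA against 46.7 and 33.3 CPM in TP0903, 28.6 and 28.5 CPM in control_shRNA and 381 and 238 CPM in control. Its direct difference of -0.48 (SE 0.24) did not pass the test (adjusted p = 0.17). Members did not all sit together. MAD2L1, a spindle checkpoint protein, was higher, at 20.1 and 23.5 CPM in AXL_shRNA against 10.1 and 9.58 CPM in TP0903 (log2 difference 1.15, SE 0.19, adjusted p = 0.0054). CENPF, a kinetochore protein, was at 20.95 and 21.2 CPM in AXL_shRNA against 34.4 and 34.2 CPM in TP0903 and lower in AXL_shRNA (log2 difference -0.70, SE 0.18, adjusted p = 0.027), and so was the spindle protein DLGAP5 at 5.83 and 7.18 CPM in AXL_shRNA against 15.8 and 12.3 CPM in TP0903 (log2 difference -1.11, SE 0.27, adjusted p = 0.02). With the adjusted p in brackets, the CENPF call was lost without AXL_shRNA P15 (0.104), AXL_shRNA P3 (0.092), TP0903 P17 (0.099) or TP0903 P4 (0.085), and the DLGAP5 call without AXL_shRNA P15 (0.102), AXL_shRNA P3 (0.051) or TP0903 P17 (0.105). In bulk RNA, fewer cycling cells and less RNA per cycling cell cannot be told apart.

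Promoters of mitosis genes often hold the CHR element, TTTGAA in its common form. In RefSeq promoters (GRCh38.p14, 250 bases before to 50 after the start, both strands, 11555 of 14308 tested protein-coding genes matched), it occurred in 41 of 60 promoters of the list (68.3%) and in 9.94% of all 11555. The windows below show it, in capitals, in 1 member that was higher in AXL_shRNA, 1 that was lower and 2 that were called neither way.
MAD2L1, chr4:120066809-120066834, minus strand: cgtcgttactTTTGAAacgcttggcg
CENPF, chr1:214603225-214603244, plus strand: ctgcgggcagTTTGAAttag
PLK1, chr16:23678850-23678875, plus strand: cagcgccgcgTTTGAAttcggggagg
CCNB2, chr15:59105107-59105132, plus strand: cgacgcggtaTTTGAAtcctggaaca

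Genes of the preceding cell cycle phase did separate both states. Of 46 G1/S and replication genes, 26 were higher in AXL_shRNA and 2 lower (background 15% and 15.1%), with a median difference of 0.81 (0.69 in P15 minus P17 and 0.92 in P3 minus P4). The count moved by more than 1.5 times when 1 library was left out (16 higher without TP0903 P17). Relative to control, the list stood at -1.77 and -1.53 in AXL_shRNA, -2.41 and -2.55 in TP0903 and -2.12 and -2.21 in control_shRNA, so both states were low and TP0903 the lower. All 46 members were called lower in control_shRNA than in control, and AXL_shRNA lay above control_shRNA in the list median. ORC6, a subunit of the origin recognition complex, was at 32.3 and 45.9 CPM in AXL_shRNA against 6.67 and 5.39 CPM in TP0903, 6.49-fold apart (log2 difference 2.70, SE 0.22, adjusted p = 0.00068). The replicative helicase subunits MCM5 (53.2 and 62.6 CPM in AXL_shRNA against 17.7 and 20.01 CPM in TP0903) and MCM3 (86.5 and 91.9 CPM in AXL_shRNA against 33.4 and 36.3 CPM in TP0903) were 3.07-fold and 2.56-fold higher. In these 3 genes each AXL_shRNA library lay above both TP0903 libraries and below both control libraries, except ORC6 in P3.

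Of 30 homologous recombination and Fanconi anaemia genes, 11 were higher in AXL_shRNA and 1 lower (36.7% higher and 3.33% lower, against 15% and 15.1% of all tested genes), with a median of 0.45. That count fell when 1 library was left out (4 higher without AXL_shRNA P3 or TP0903 P4, 3 without TP0903 P17), and the direction was not one-sided on TPM values (4 higher and 4 lower on log2(TPM + 1)). XRCC2, which acts in homologous recombination, was at 8.85 and 12.2 CPM in AXL_shRNA against 3.02 and 2.64 CPM in TP0903 (log2 difference 1.90, SE 0.27, adjusted p = 0.0031). Its relative XRCC3 was 2.39-fold higher and the Fanconi core protein FANCA 2.11-fold higher in AXL_shRNA. All 3 were at 21.2 CPM or more in both libraries labelled control. Relative to control, the list stood at -1.73 and -1.55 in AXL_shRNA, -2.42 and -2.46 in TP0903 and -1.99 and -1.88 in control_shRNA. In control_shRNA 24 of the 30 members were called lower than in control, so AXL_shRNA lay above its hairpin control in the list median. Of 30 p53 targets, 8 were lower in AXL_shRNA and 2 higher (6.67% higher and 26.7% lower, against 15% and 15.1% of all tested genes), with a median of -0.32 (1 higher and 14 lower on log2(TPM + 1)). The 2 higher ones rested on single libraries (0 higher without AXL_shRNA P15, TP0903 P17 or TP0903 P4, 1 without AXL_shRNA P3). TRIAP1, an inhibitor of apoptosis, was at 22.5 and 25.8 CPM in AXL_shRNA against 81.5 and 90.2 CPM in TP0903 (log2 difference -1.83, SE 0.19, adjusted p = 0.0013), PHLDA3, which restrains AKT, was 2.87-fold lower, and cyclin G1 (CCNG1) was 2.31-fold lower. The G1 kinase CDK6 was 2.84-fold higher in AXL_shRNA, at 215 and 221 CPM in AXL_shRNA against 82.5 and 71.3 CPM in TP0903, and the apoptosis inducer BIK 7.78-fold higher, at 8.88 and 10.4 CPM in AXL_shRNA against 1.42 and 1.05 CPM in TP0903.

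**Figure D2:**
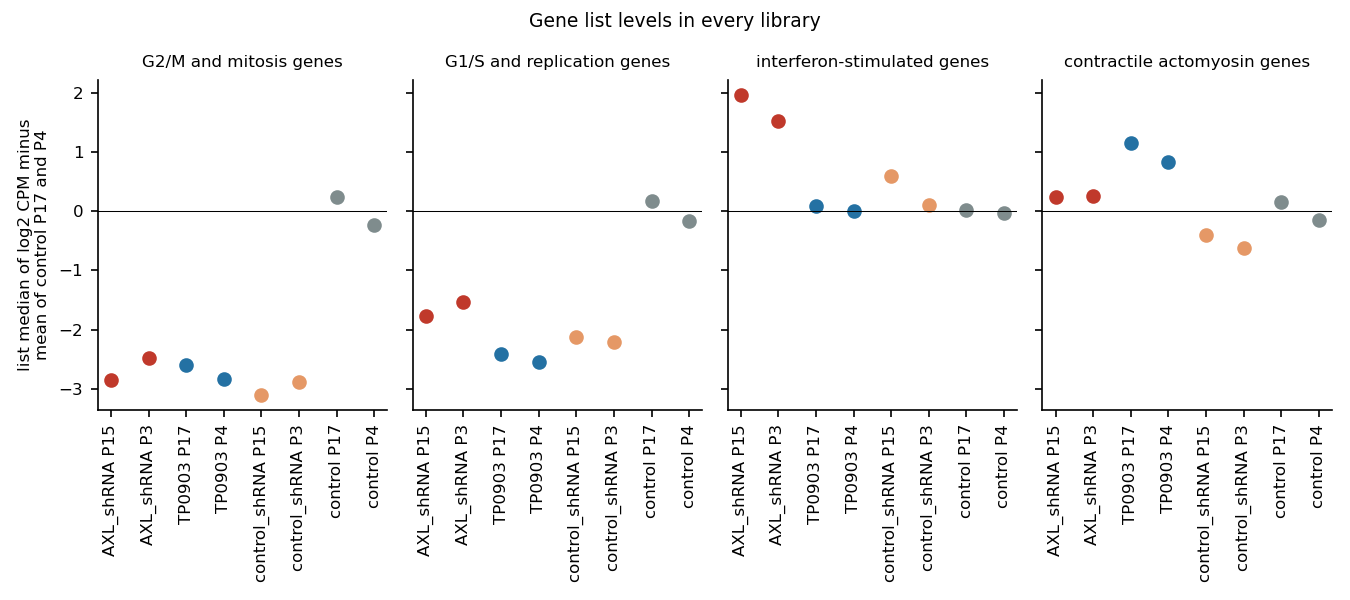
Median over each gene list of log2 CPM minus the mean of control P17 and P4 (y axis) in each of the 8 libraries (x axis), 1 point a library. Mitosis genes lie between -3.09 and -2.48 in 6 libraries, replication genes are lowest in TP0903, interferon-stimulated genes are at 1.52 and 1.96 in AXL_shRNA and at most 0.59 elsewhere, and actomyosin genes are highest in TP0903.

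Interferon-stimulated genes stood higher in AXL_shRNA as a group. They are the antiviral set that cells switch on through JAK and STAT proteins when interferon or foreign nucleic acid is sensed. Of 48 members tested, 32 were higher in AXL_shRNA (66.7%, against 15% of all tested genes) and none was lower; the median difference was 1.58 (1.78 and 1.44 in the pairs). The fits without 1 library called 22 to 33 members higher. Relative to control the list stood at 1.96 and 1.52 in AXL_shRNA, 0.10 and 0.00 in TP0903 and 0.59 and 0.10 in control_shRNA. OAS2, which makes the oligoadenylate messenger that activates RNase L, was at 18.8 and 7.47 CPM in AXL_shRNA against 0.0926 and 0.146 CPM in TP0903 (log2 difference 6.73, SE 0.65, adjusted p = 0.001). MX1, a GTPase that blocks viral nucleocapsids, was at 25.5 and 11.8 CPM in AXL_shRNA against 0.864 and 0.82 CPM in TP0903, 22.1-fold higher. OAS3 was at 210.2 and 176 CPM in AXL_shRNA against 54.2 and 51.6 CPM in TP0903, with 35.9 and 36.8 CPM in control_shRNA and 98.999 and 94.1 CPM in control. TP0903 lay between these controls, and AXL_shRNA above all others. The interferon genes themselves were scarce. IFNB1 was at 0.0604 and 0.121 CPM and IFNL1 at 0.453 and 0.388 CPM in AXL_shRNA, and both were at 0 in the 6 other libraries. Of 19 MHC class I and peptide loading genes, 3 were higher and 3 lower, near the background (15.8% higher and 15.8% lower, against 15% and 15.1% of all tested genes). The median was 0.10, from -0.22 to 0.41 over the alternatives. Single libraries moved these counts (5 higher without control_shRNA P15 or control_shRNA P3, 1 without AXL_shRNA P15, AXL_shRNA P3 or TP0903 P17, 0 without TP0903 P4; 1 lower without AXL_shRNA P3 or TP0903 P17), as did TPM values and DESeq2 (1 higher and 3 lower on log2(TPM + 1), 5 higher and 3 lower with DESeq2). The nonclassical HLA-F was 2.88-fold higher, a call lost without TP0903 P4 (0.059), adjusted p in brackets, and CALR, a chaperone of the loading complex, was 1.77-fold lower at 367 and 342 CPM in AXL_shRNA against 654 and 598 CPM in TP0903.

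The response element of these genes is a repeat of GAAA. A pair of GAAA with any 2 bases between, on either strand, occurred in 25 of 38 promoters of the list (65.8%) and 2.87% of all 11555. It was in 16 of 25 promoters of members called higher (64.0%) and in 9 of 13 of members not called (69.2%). Windows of OAS3 and MX1 are shown for the match, in capitals.
OAS3, chr12:112938452-112938481, plus strand: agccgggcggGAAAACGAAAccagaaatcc
MX1, chr21:41420559-41420588, plus strand: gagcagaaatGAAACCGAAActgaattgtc

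NF-kB targets and cytokines rose as well: 18 of 32 were higher in AXL_shRNA and 2 lower, with a median of 1.64. These are 56.25% higher and 6.25% lower, against 15% and 15.1% of all tested genes. CXCL8, the neutrophil chemokine interleukin 8, was at 212 and 280.4 CPM in AXL_shRNA against 7.62 and 4.63 CPM in TP0903 (log2 difference 5.33, SE 0.37, adjusted p = 0.00051). The control hairpin was also above control for CXCL8 (19.96 and 34.9 against 7.47 and 8.28 CPM, log2 1.80, adjusted p = 0.019), and the difference beyond the controls was 3.53 (adjusted p = 0.0033). CXCL2, a related chemokine, was 7.59-fold higher, and mitochondrial superoxide dismutase SOD2, at 886 and 1401 CPM in AXL_shRNA against 298 and 209 CPM in TP0903, 4.51-fold higher. UBD, a ubiquitin-like modifier induced by inflammatory cytokines, was at 44.6 and 49.2 CPM in AXL_shRNA against 0.833 and 0.879 CPM in TP0903 (log2 difference 5.77, SE 0.53, adjusted p = 0.00094). OR2I1P, 82.7-fold higher, overlaps UBD on the opposite strand, and since the counting is not stated to use strand their reads cannot be told apart. A motif of the NF-kB type (GGGA, any base, then TTTCC) was in 11 of 25 promoters of the list (44.0%) and 0.571% of all. Here it is in CXCL2.
CXCL2, chr4:74099254-74099283, minus strand: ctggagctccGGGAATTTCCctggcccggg

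Among 20 JAK, STAT, SOCS and cytokine receptor genes, 8 were higher and 2 lower (5 higher without AXL_shRNA P15, AXL_shRNA P3 or TP0903 P17). IL6R, the interleukin 6 receptor, was at 105 and 87.3 CPM in AXL_shRNA against 12.6 and 14.4 CPM in TP0903 (log2 difference 2.83, SE 0.15, adjusted p = 0.00034). LIFR, the receptor for leukaemia inhibitory factor, was 1.89-fold and the feedback inhibitor SOCS2 3.97-fold higher. STAT3 itself was at 728 and 647 CPM in AXL_shRNA against 619.5 and 555 CPM in TP0903, with an interval of -0.13 to 0.59. JAK1 was lower in AXL_shRNA by a small margin (338 and 400.01 against 469 and 541 CPM, log2 difference -0.45, SE 0.13, adjusted p = 0.041). Its call was lost in 7 of the 8 fits that leave out a library, and held without control_shRNA P15 (adjusted p 0.047 to 0.198 over the 8). Immediate early genes, the transcription factors that answer growth factor signals within minutes, were higher at 13 of 22 members and lower at 1 (8 higher without TP0903 P17). KLF6 was at 299.7 and 260.4 CPM in AXL_shRNA against 64.3 and 49.04 CPM in TP0903, MYC at 288 and 287 CPM in AXL_shRNA against 73.9 and 73.2 CPM in TP0903 and KLF2 at 38.2 and 20.1 CPM in AXL_shRNA against 1.36 and 1.87 CPM in TP0903, with differences of 2.30, 1.97 and 4.17. In control_shRNA these 3 were at 126 and 154, 97.2 and 148 and 14.2 and 18.3 CPM, all above TP0903. MYC targets of ribosome biogenesis were higher at 13 of 37 members and lower at none (4 higher without AXL_shRNA P15 or TP0903 P4, 7 without AXL_shRNA P3, 3 without TP0903 P17; 7 higher and 3 lower on log2(TPM + 1), 17 higher and 1 lower with DESeq2), for example the spermidine synthase SRM at 105 and 101 CPM in AXL_shRNA against 50.4 and 47.9 CPM in TP0903.

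Among the 12 largest rises were 3 granins, proteins of secretory granules. SCG3, a granin that sorts cargo into dense-core granules, was at 22.8 and 28.1 CPM in AXL_shRNA against 0 and 0.205 CPM in TP0903 (log2 difference 7.88, SE 0.72, adjusted p = 0.0009). The 0 in TP0903 P17 makes its fold uncertain, and TP0903 P4 was at 0.205 CPM, far below both AXL_shRNA libraries. SCG2 was at 210.02 and 538 CPM in AXL_shRNA against 3.12 and 7.47 CPM in TP0903 (log2 difference 6.14, SE 0.90, adjusted p = 0.0034), and CHGA, chromogranin A, at 27.9 and 29.5 CPM in AXL_shRNA against 0.71 and 0.557 CPM in TP0903 (log2 difference 5.50, SE 0.31, adjusted p = 0.00035). A further 3 of the 12 act in neurons: AP3B2, a subunit of the neuronal AP-3 coat (35.4 and 33.4 CPM in AXL_shRNA against 0.185 and 0.439 CPM in TP0903, 108-fold); CHRNB2, a nicotinic receptor subunit (39.5 and 32.9 CPM in AXL_shRNA against 0.309 and 0.498 CPM in TP0903, 88.7-fold); and RUNDC3A, a brain protein that binds RAP2 (38.2 and 35.2 CPM in AXL_shRNA against 0.432 and 0.615 CPM in TP0903, 69.5-fold). Chosen after these values were seen, CHGB (202 and 128 CPM in AXL_shRNA against 3.98 and 6.71 CPM in TP0903), VGF (32.7 and 35.4 CPM in AXL_shRNA against 2.56 and 1.11 CPM in TP0903) and the synaptic vesicle protein SYP (14.2 and 12.4 CPM in AXL_shRNA against 0.926 and 1.55 CPM in TP0903) were 30.8-, 18.5- and 10.7-fold higher. SCG5, another granin gene, was not called (0.604 and 0.752 against 0.525 and 0.762 CPM). In control_shRNA, SCG3, AP3B2, CHGA and RUNDC3A were all under 1 CPM, as in control, whereas SCG2 (15.8 and 39.4 CPM) and CHGB (32.3 and 40.97 CPM) were above TP0903. The neuroendocrine factor INSM1 was at 0 in every library.

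REST, the repressor that keeps neuronal genes silent in other tissues, was named after these values were seen. It was at 21.9 and 23.6 CPM in AXL_shRNA against 47.96 and 45.3 CPM in TP0903, with 50.2 and 50.3 CPM in control_shRNA and 52.8 and 46.9 CPM in control (log2 difference -1.03, SE 0.11, adjusted p = 0.0014). The 6 libraries without the AXL hairpin lay within 45.3 to 52.8 CPM, and both AXL_shRNA libraries under 24. The difference beyond the controls was -1.04 (adjusted p = 0.0049). The left part of its element, TTCAGCACC, was in 34 of 11555 promoters (0.294%), and among the neuronal genes named here a match was found in SCG3, as shown.
SCG3, chr15:51681501-51681529, plus strand: tcacaggaacTTCAGCACCcacagggcgg

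The 12 also held UBD, OR2I1P and CXCL8, given above, and KRT6A, a keratin of stratified and wounded epithelium (38.5 and 92.96 CPM in AXL_shRNA against 0.555 and 0.0293 CPM in TP0903), SERPINA3, an acute phase protease inhibitor (39.8 and 68.5 CPM in AXL_shRNA against 1.14 and 1.41 CPM in TP0903, 42.4-fold), and CEMIP, which degrades hyaluronan (24.6 and 28.6 CPM in AXL_shRNA against 0.864 and 0.615 CPM in TP0903, 35.9-fold). Epithelial junction and keratin genes were higher at 10 of 32 members and lower at 2 (6 higher without TP0903 P17). EPCAM, an epithelial adhesion molecule, was at 48.3 and 28.1 CPM in AXL_shRNA against 3.89 and 3.08 CPM in TP0903 (log2 difference 3.46, SE 0.31, adjusted p = 0.0009). The desmocollin DSC2, of desmosomes, was 3.63-fold higher. KRT18 was at 7809 and 6622 CPM in AXL_shRNA against 2566 and 3426 CPM in TP0903 (2.41-fold), while KRT8 (2.15-fold) lost its call without AXL_shRNA P15 (0.057) or TP0903 P17 (0.069), adjusted p in brackets. KRT8 and KRT18 overlap on opposite strands. ZEB1, a repressor of epithelial genes, was 2.06-fold lower in AXL_shRNA (19.4 and 19.4 against 41.5 and 38.3 CPM). Among 25 mesenchymal genes 6 were higher and 2 lower (24% higher and 8% lower, against 15% and 15.1% of all tested genes). SPARC was at 127 and 206 CPM in AXL_shRNA against 16.8 and 16.2 CPM in TP0903 (10.1-fold) and COL3A1 at 29.9 and 65.4 CPM in AXL_shRNA against 2.13 and 3.49 CPM in TP0903 (16.9-fold). The count of rises fell when 1 library was left out (2 higher without AXL_shRNA P3 or TP0903 P4, 3 without TP0903 P17). The fibroblast markers include COL3A1, so they are not a separate set. Of 6 tested, 3 were higher (1 higher without AXL_shRNA P3, TP0903 P17 or TP0903 P4), the summed level of all 9 was 63.8 and 126.8 CPM in AXL_shRNA against 18.1 and 29.3 CPM in TP0903, and the defining genes COL1A2, DCN and FAP were under 0.1 CPM throughout. The part of other cells in the matrix genes was not tested.

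**Figure D3:**
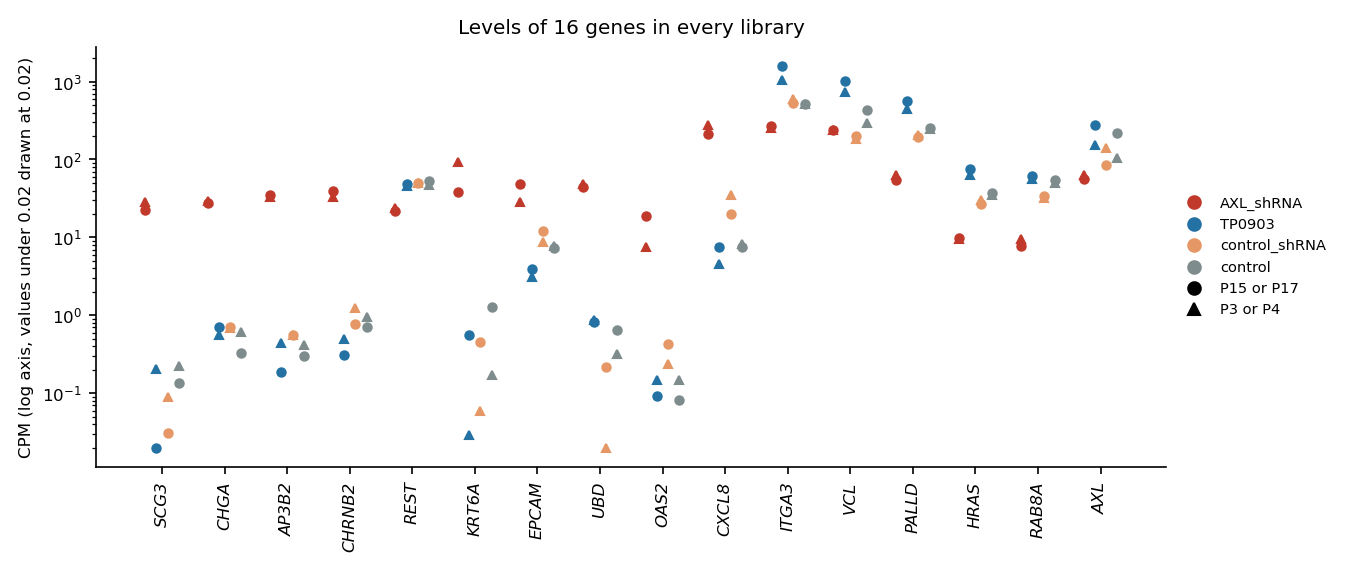
CPM on a log axis (y) of 16 genes (x) in the 8 libraries. Colours give the group, circles P15 or P17 and triangles P3 or P4, and values under 0.02 are drawn at 0.02. SCG3, CHGA, AP3B2 and CHRNB2 are at 22.8 CPM or more in both AXL_shRNA libraries and at 1.26 CPM or less in the other 6, REST is lower in AXL_shRNA, and ITGA3, VCL and PALLD are highest in TP0903.

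Genes of the contractile cytoskeleton were lower in AXL_shRNA than in TP0903. Of 33 actomyosin genes, 17 were lower and 1 higher (11 lower without TP0903 P17), with a median of -0.91 (-1.12 and -0.60 in the pairs). Relative to control, the list stood at 0.25 and 0.25 in AXL_shRNA, 1.14 and 0.82 in TP0903 and -0.40 and -0.62 in control_shRNA. AXL_shRNA thus lay above control_shRNA and TP0903 above control, and the controls also differed, with control_shRNA the lower. VCL, vinculin, was at 237 and 237 CPM in AXL_shRNA against 1010.00000 and 742 CPM in TP0903 and 426 and 297 CPM in control (log2 difference -1.89, SE 0.21, adjusted p = 0.0017). Talin (TLN1) was 2.30-fold and tropomyosin TPM2 3.35-fold lower. The calponin CNN3 ran against the list (276 and 265 against 129.99 and 125 CPM). PALLD, palladin, which bundles actin, was at 55.1 and 63.2 CPM in AXL_shRNA against 569 and 448 CPM in TP0903 (log2 difference -3.10, SE 0.15, adjusted p = 0.00032), below 192 and 205 CPM in control_shRNA, so it lay below the controls in AXL_shRNA and above them in TP0903.

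Integrins and laminins were lower at 5 of 28 members and higher at 3 (3 lower without AXL_shRNA P15, 2 without TP0903 P17), which is near the background (10.7% higher and 17.9% lower, against 15% and 15.1% of all tested genes). ITGA3, the laminin-binding alpha chain, was at 269.9 and 257 CPM in AXL_shRNA against 1578 and 1059.9 CPM in TP0903, with 527 and 598 CPM in control_shRNA and 521 and 514 CPM in control (log2 difference -2.32, SE 0.20, adjusted p = 0.00075). Its partner ITGB1 was 1.74-fold lower, and ITGA6, another laminin receptor chain, 1.93-fold higher. The sheddase ADAM9 was at 321 and 313 CPM in AXL_shRNA against 1091 and 1005 CPM in TP0903, 3.31-fold lower, and the metalloproteinase MMP7 at 482 and 215 CPM in AXL_shRNA against 35.98 and 43.9 CPM in TP0903, 8.72-fold higher. MCAM, a melanoma adhesion molecule, was 5.53-fold lower at 11.1 and 4.27 CPM in AXL_shRNA against 55.8 and 28.8 CPM in TP0903, and lost its call, adjusted p in brackets, without AXL_shRNA P3 (0.055) or TP0903 P17 (0.074). YAP1, the coactivator of the Hippo pathway, was at 87.8 and 88.4 CPM in AXL_shRNA against 140.1 and 150.3 CPM in TP0903 (log2 difference -0.72, SE 0.10, adjusted p = 0.0027). Of 27 YAP and TAZ targets, 5 were lower (3 lower without AXL_shRNA P15 or TP0903 P17) and 3 higher (3 higher and 8 lower with DESeq2), near the background (11.1% higher and 18.5% lower, against 15% and 15.1% of all tested genes). Among them were CRIM1, 2.29-fold lower, and ASAP1, 1.99-fold higher.

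SMAD4, the shared partner of TGF-beta and BMP signalling, was at 31.6 and 28.6 CPM in AXL_shRNA against 51.6 and 52.4 CPM in TP0903, with 58.95 and 58.4 CPM in control_shRNA and 65.1 and 60.003 CPM in control (log2 difference -0.79, SE 0.10, adjusted p = 0.0024). SMAD2, a TGF-beta receptor substrate, was at 81.1 and 55.4 CPM in AXL_shRNA against 139.7 and 136 CPM in TP0903 (log2 difference -1.01, SE 0.18, adjusted p = 0.0069). Both were lowest in AXL_shRNA of the 4 groups, without overlap. Among 28 SMADs and TGF-beta targets, 4 were lower and 2 higher, no more than the background (7.14% higher and 14.3% lower, against 15% and 15.1% of all tested genes). PMEPA1, a feedback inhibitor induced by TGF-beta, was 3.30-fold lower, and the BMP target ID3 1.99-fold higher.

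Several of the 12 largest falls were signalling and trafficking genes. HRAS, a RAS GTPase, was at 9.90 and 9.58 CPM in AXL_shRNA against 74.8 and 62.7 CPM in TP0903, with 27.03 and 29.96 CPM in control_shRNA (log2 difference -2.82, SE 0.13, adjusted p = 0.00032). RAB8A, which directs vesicles to the membrane and cilium, was at 7.76 and 9.63 CPM in AXL_shRNA against 61.5 and 55.9 CPM in TP0903, GNG10, a G protein gamma subunit, at 10.4 and 13.5 CPM in AXL_shRNA against 73.7 and 79.4 CPM in TP0903, and CASC4, a Golgi membrane protein, at 20.6 and 24.95 CPM in AXL_shRNA against 134 and 147 CPM in TP0903; they were 6.74-, 6.40- and 6.16-fold lower. KAT2B, an acetyltransferase that marks histone H3, was at 2.17 and 3.98 CPM in AXL_shRNA against 29.2 and 29.2 CPM in TP0903 (log2 difference -3.24, SE 0.26, adjusted p = 0.00071), and SMIM14 at 10.8 and 9.92 CPM in AXL_shRNA against 65.2 and 83.7 CPM in TP0903 (7.19-fold lower). The rule for the 12 largest falls already required both AXL_shRNA libraries to lie below both TP0903 libraries. In each of these 6 genes they also lay below the control_shRNA and control libraries. The share of all tested genes that do so was not counted. SYNC (2.99 and 1.77 against 42.5 and 20.3 CPM), SFRP4, a secreted WNT antagonist (1.90 and 2.74 against 17.3 and 31.7 CPM), and the kinase ALPK2 (26.2 and 18.2 against 195 and 111 CPM) were 13.3-, 10.5- and 6.90-fold lower, and in each, TP0903 P17 was above control P17 and TP0903 P4 above control P4. GNG10 shares exons with the readthrough DNAJC25-GNG10, and the readthrough NME1-NME2 (6.52-fold lower) shares reads with NME1 and NME2, so both values are uncertain.

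Sequence was examined in 10605 protein-coding genes that averaged 5 CPM or more and had 50 or more bases of 3′ UTR (GENCODE 29, GRCh38, 1 transcript a gene). All 8-base sequences held by 50 genes or more were ranked by how far their holders were shifted down in AXL_shRNA minus TP0903, after UTR length and GC content. TGAAGGAA came first, and ATGAAGGA and GAAGGAAA, which overlap it, followed. It was chosen on this contrast, so its values are a description without a test. Its 749 holders had a median difference of -0.35 (-0.33 and -0.35 in the pairs); 38.1% were called lower and 9.48% higher. The 2163 genes with only 7 of the 8 bases had a median of -0.15, with 27.1% lower, and the 7693 genes with neither had 0.03, with 16.5% lower. Median UTR lengths were 3161, 2585 and 859 bases, so holders have longer UTRs. In control_shRNA minus control the medians were 0.010, 0.030 and -0.022, and in TP0903 minus control -0.023, -0.0015 and -0.022. The 12 largest falls come from the same contrast and were not matched for UTR length, so their count is not separate evidence. Of these 12, 6 held all 8 bases (RAB8A, GNG10, CASC4, KAT2B, SMIM14, PALLD), against 749 of all 10605 genes. REST, SMAD2 and SMAD4 held them too. The 3′ UTR used was 32870 bases long for SMAD2 and 6578 for SMAD4, and a longer UTR has more places for any 8 bases. Of the 12, the site class of ALPK2, NME1-NME2 and MCAM is not given here. HRAS, SYNC, SFRP4, ITGA3, VCL and ADAM9 held 7, and AXL neither. Whether the letters match the hairpin was not tested, since the sources used here do not state its sequence. Sites of 6 genes are shown with the 8 bases in capitals.
RAB8A, chr19:16132895-16132924, plus strand: gaaagcacaaaTGAAGGAAatcctgtgtaa
GNG10, chr9:111669435-111669464, plus strand: agaaaactgggTGAAGGAAtagaattttaa
CASC4, chr15:44413534-44413563, plus strand: aaaaactttaaTGAAGGAAtgtacccatgt
KAT2B, chr3:20153894-20153923, plus strand: gataatctgcaTGAAGGAAaaagaaccctg
SMAD4, chr18:51078719-51078748, plus strand: cctgttatgtaTGAAGGAAtcattccagtg
REST, chr4:56934425-56934454, plus strand: aaacaaaaacaTGAAGGAAattaaaacccc

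**Figure D4:**
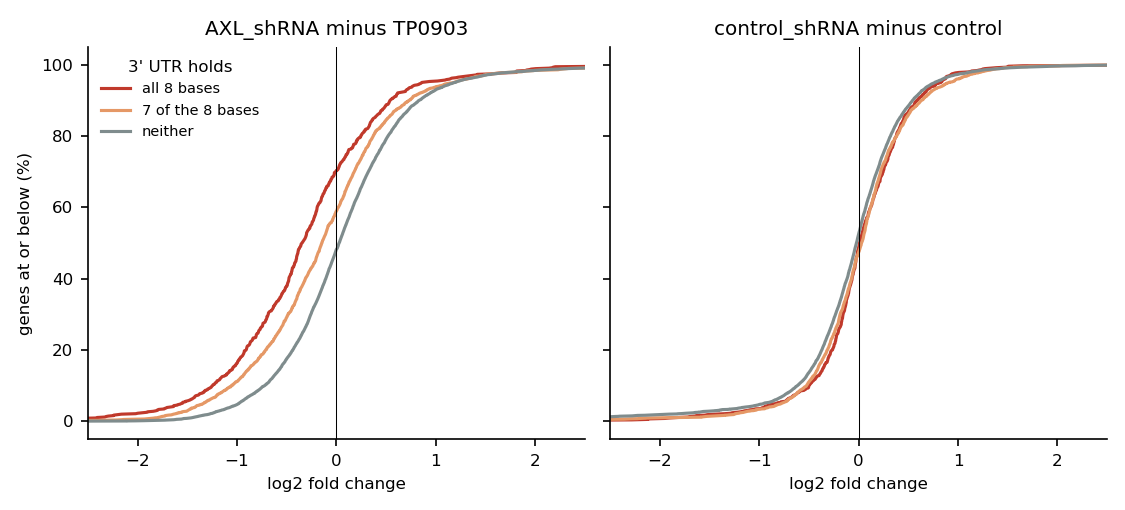
Cumulative share of genes (y axis, %) at or below a log2 fold change (x axis) for genes whose 3′ UTR holds all 8 bases (749), 7 of them (2163) or neither (7693). In AXL_shRNA minus TP0903 (left) the curves separate, with medians of -0.35, -0.15 and 0.03, and in control_shRNA minus control (right) they lie together.

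Protein synthesis and folding genes went both ways, against 15% higher and 15.1% lower over all tested genes. Of 77 cytosolic ribosomal protein genes, 52 were higher in AXL_shRNA and 3 lower, with a median of 0.56; RPL12 was at 981 and 838 CPM in AXL_shRNA against 364 and 378 CPM in TP0903 and RPS3 at 1245 and 1077 CPM in AXL_shRNA against 516 and 561 CPM in TP0903. That count fell when 1 library was left out (18 higher without AXL_shRNA P15 or TP0903 P17, 23 without TP0903 P4), and on TPM values it was 25 higher with 7 lower. These genes have many processed pseudogenes that can take reads. They made up 5.15% and 4.59% of all counts in AXL_shRNA, 3.30% and 3.64% in TP0903 and 4.90% to 6.23% in the controls, so TP0903 was the low group. Aminoacyl-tRNA synthetases were lower at 10 of 23 members and higher at 2 (6 lower without AXL_shRNA P15, 5 without AXL_shRNA P3 or TP0903 P4, 4 without TP0903 P17; 0 higher and 13 lower on log2(TPM + 1)). The isoleucyl enzyme IARS was at 135 and 131 CPM in AXL_shRNA against 297 and 323 CPM in TP0903 and 524 and 695 CPM in control_shRNA, and the glycyl enzyme GARS was 2.31-fold lower. ER chaperone and unfolded protein response genes were lower at 16 of 31 and higher at 4 (10 lower without TP0903 P17; 1 higher and 18 lower on log2(TPM + 1)), with a median of -0.45. SEL1L, of the ER degradation ligase complex, was at 48.9 and 54.8 CPM in AXL_shRNA against 186 and 186 CPM in TP0903 (log2 difference -1.84, SE 0.12, adjusted p = 0.00047), and EDEM2, which trims glycans for that route, was 2.60-fold lower.

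Of 28 heat shock proteins and chaperones, 12 were higher and 1 lower (7 higher without AXL_shRNA P15 or TP0903 P4, 5 without TP0903 P17). The collagen chaperone SERPINH1 was at 540.2 and 472 CPM in AXL_shRNA against 136 and 113 CPM in TP0903 (log2 difference 2.03, SE 0.17, adjusted p = 0.00071), FKBP4 2.54-fold and HSPH1 2.25-fold higher. HSP90AA1, the inducible HSP90, was the exception, at 790.3 and 956 CPM in AXL_shRNA against 1816 and 2042 CPM in TP0903 (log2 difference -1.14, SE 0.19, adjusted p = 0.0058). Of 32 proteasome subunits 29 lay inside 2-fold (1 higher and 8 lower on log2(TPM + 1)), with PSMD2 2.86-fold lower and PSMC6 1.73-fold higher. Of 71 nuclear genes of the respiratory complexes 67 lay inside 2-fold, and 9 were lower and 3 higher (4.23% higher and 12.7% lower, against 15% and 15.1% of all tested genes). These counts moved when 1 library was left out (5 lower without AXL_shRNA P3; 1 higher without AXL_shRNA P15, 0 without TP0903 P17) and on TPM values (2 higher and 26 lower on log2(TPM + 1)). ATP5H, a subunit of ATP synthase, was the exception in size, at 50.1 and 47.97 CPM in AXL_shRNA against 145 and 132 CPM in TP0903. Mitochondrially encoded genes took 6.79% and 7.79% of counts in AXL_shRNA, 5.16% and 5.82% in TP0903 and 3.58% to 5.17% in the controls, and 5 of 15 were higher (1 higher without AXL_shRNA P3 or TP0903 P17, 3 without control P17 or control P4, 2 without TP0903 P4; 1 higher and 0 lower on log2(TPM + 1), 8 higher and 0 lower with DESeq2). MT-RNR1, the small ribosomal RNA of mitochondria, was at 2059 and 1946 CPM in AXL_shRNA against 915 and 774 CPM in TP0903.

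Metabolic lists gave the following, against 15% higher and 15.1% lower over all tested genes. Glycolysis and hypoxia genes were higher at 18 of 39 and lower at 1 (10 higher without AXL_shRNA P15, 7 without TP0903 P17). Hexokinase HK2, the entry enzyme of glycolysis, was at 8.97 and 8.46 CPM in AXL_shRNA against 0.185 and 0.205 CPM in TP0903, with 1.29 and 1.65 CPM in control_shRNA and 0.703 and 0.942 CPM in control (log2 difference 5.45, SE 0.33, adjusted p = 0.00037). The enolase ENO2 was 2.78-fold higher. The NRF2 targets HMOX1, haem oxygenase, and TXNRD1, thioredoxin reductase, moved apart: HMOX1 was at 1163 and 1823 CPM in AXL_shRNA against 234 and 463 CPM in TP0903 (log2 difference 2.10, SE 0.36, adjusted p = 0.0062) and TXNRD1 at 558 and 827 CPM in AXL_shRNA against 2719.8 and 3447 CPM in TP0903 (log2 difference -2.16, SE 0.26, adjusted p = 0.002). AKR1B10 was at 9142 and 8552 CPM in AXL_shRNA against 1451 and 3222 CPM in TP0903 (3.79-fold). Of 31 NRF2 targets, 6 were higher and 2 lower. Of 19 fatty acid synthesis genes, 2 were higher and 3 lower. Among the latter, fatty acid synthase FASN was 1.92-fold higher. PMVK, of the mevalonate route, was 2.91-fold lower. Among 31 cholesterol synthesis genes 6 were higher and 4 lower (3 higher and 5 lower on log2(TPM + 1)). That is near the background (19.4% higher and 12.9% lower, against 15% and 15.1% of all tested genes). Of 40 lysosome and autophagy genes 11 were lower and 6 higher (2 higher without AXL_shRNA P15 or AXL_shRNA P3, 1 without TP0903 P17, 3 without TP0903 P4) (15% higher and 27.5% lower, against 15% and 15.1% of all tested genes). The cholesterol exporter NPC1 was 1.99-fold higher.

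**Figure D5:**
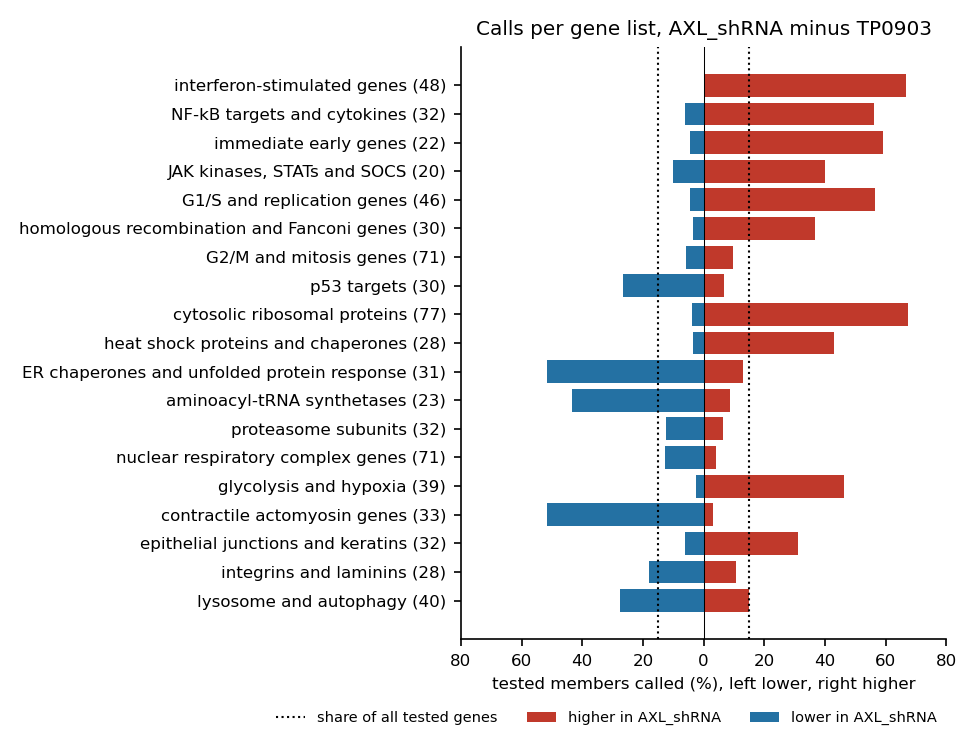
Share of tested members called (x axis, %) for 19 gene lists (y axis, number tested in brackets). Bars to the right are members higher in AXL_shRNA and bars to the left lower, and dotted lines mark 15% and 15.1% of all tested genes. Interferon-stimulated genes reach 66.7% higher with none lower, and mitosis genes stay inside both lines.

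Of 22 ERK feedback genes 8 were higher and 2 lower (3 higher without AXL_shRNA P15, 5 without AXL_shRNA P3, 1 without TP0903 P17, 2 without TP0903 P4; 5 higher and 2 lower on log2(TPM + 1)). For some genes the controls differed as the treated states did, and the difference beyond the controls did not pass the test. SPRY2, a feedback inhibitor of ERK signalling, was at 32.3 and 34.996 CPM in AXL_shRNA against 11.97 and 10.1 CPM in TP0903 (log2 difference 1.61, SE 0.21, adjusted p = 0.0024), and at 32.9 and 25.5 CPM in control_shRNA and 13.1 and 9.57 CPM in control. The difference beyond the controls was 0.25 (adjusted p = 0.58). IGFBP3, which binds insulin-like growth factors, gave 1.44 directly and 0.10 beyond the controls (adjusted p = 0.87). The ER cochaperone DNAJB9 gave 0.93 and -0.24 (adjusted p = 0.35). Fibronectin (FN1) gave 1.82 and 0.59 (adjusted p = 0.52), and its direct call was lost, adjusted p in brackets, without AXL_shRNA P3 (0.082), TP0903 P17 (0.11) or TP0903 P4 (0.053). Other genes kept a difference of that size beyond the controls: IGFBP4 gave -1.45 and -1.68, IGFBP6 1.28 and 1.46, and SPRED2, another ERK inhibitor, -0.68 and -1.04 (adjusted p beyond the controls 0.0015, 0.0037 and 0.0056).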

How the data were processed

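RNA sequencing of A549 cells gave 8 libraries, 2 a group. Per the submitters' processing notes, reads were aligned with STAR 2.5.3a and quantified with RSEM on GRCh38, and the authors deposited, per gene, expected counts, TPM and FPKM, with effective lengths; the sources used here do not name the annotation or any use of strand. Expected counts were rounded to whole numbers. Of 58302 genes, 17676 passed filterByExpr and were fitted with edgeR 4.0.16 (quasi-likelihood test, TMM scaling, 1 term a group, all 8 libraries, 4 residual degrees of freedom, two-sided, Benjamini-Hochberg adjustment, threshold 0.05). CPM come from the rounded counts. Standard errors were derived from the fitted difference and its F value. For very small differences they came from the variance of the negative binomial fit instead. Intervals cover 95%. The biological coefficient of variation was 21.5%, and depth ran from 30067011 to 44217023 counts a library. The deposited TPM values were tested as log2(TPM + 1) with limma 3.58.1, and DESeq2 1.42.0 was run on the counts, both as alternatives. The deposited FPKM were not used.

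Members, gene lists and the search for motifs were chosen with earlier results of these data known, so no list is independent evidence. The rule for named genes took 10 fixed genes, the 12 largest rises and 12 largest falls among protein-coding genes with at least 10 CPM on average, and for each list the called members of smallest p. It named 230 genes, of which 194 were called, and 127 of these were called whichever library was left out. The text gives values for 120 genes, chosen mostly among those whose call held. REST, CHGB, VGF, SYP, SCG5, INSM1, IFNB1 and IFNL1 were chosen after their values were seen. Libraries of 1 group differed beyond counting error at 50.7% to 56.9% of genes, so none was a repeat deposit. The fits were tested on simulated data. Gene positions and 3′ UTRs come from GENCODE 29 and promoters from RefSeq. Some genes that the rule names are not reported here.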

Additional observations from a re-analysis of the deposited data

Results flagged for a closer look

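In some gene lists the median difference of AXL_shRNA minus TP0903 had opposite signs in the high P pair (P15 minus P17) and the low P pair (P3 minus P4). The difference between the pairs was not tested, since each pair holds 1 library a group. The log2 medians were 0.12 and -0.04 for TAM receptors and ligands, -0.49 and 0.02 for EGF receptor ligands, and -0.27 and 0.19 for G2/M and mitosis genes. They were -0.03 and 0.08 for proteasome subunits, 0.50 and -0.14 for NRF2 targets, and 0.02 and -0.37 for aldehyde dehydrogenases. For matrix metalloproteinases and their inhibitors they were -0.02 and 0.40, and for ABC transporters 0.24 and -0.08. Groups of 2 libraries allow no check for a library far from the others.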

How the results depend on the processing

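The direct comparison called 1643 genes against a fold of 1.5 (855 higher, 788 lower), and its higher count was 1589 on log2(TPM + 1) and 1584 on log2(TPM + 0.1), where 3408 were lower under the first. Leaving out 1 library gave 2450 to 5152 direct calls, 1046 to 2545 higher and 1404 to 2639 lower. For control_shRNA minus control the count was 3352 (1683 higher, 1669 lower) with no filter, 2758 (1211 higher) with DESeq2, 374 (41 higher, 333 lower) against a fold of 1.5, and 343 to 1277 (33 to 442 higher, 310 to 835 lower) without 1 library. Beyond the controls 1448 genes were called against a fold of 1.5 (854 higher, 594 lower), 1266 and 1221 higher on the TPM scales, and 1855 to 2670 (1008 to 1415 higher, 847 to 1255 lower) without 1 library. The cause of these moves was not tested, beyond fewer libraries and a stricter test. The groups compared share no P number, so the replicate block used P number in 2 levels. It gave 6869 direct calls, 2968 for the controls (1282 higher, 1686 lower), and 2609 lower beyond the controls. Under the block 18 nuclear respiratory genes were lower against 9, and 9 YAP and TAZ targets against 5. Deviations of AXL_shRNA and TP0903 libraries of the same level correlated at 0.202 across genes, against 0.171 to 0.309 between groups that share no number and 0.444 and 0.450 between groups that do. With 2 levels this was not taken as pairing. AXL was -1.87 with an adjusted p of 0.054 against a fold of 1.5, and -2.26 to -1.38 without 1 library (adjusted p 0.012 to 0.084). Values that turned in sign, none of them called, were TYRO3 (-0.052 on library totals, -0.053 and -0.065 on the TPM scales, and, without 1 library, -0.085 to 0.14, negative without AXL_shRNA P3 or TP0903 P17), GAS6 (-0.69 to 0.11 without 1 library), PROS1 (-0.45 to 1.00; both GAS6 and PROS1 turned without TP0903 P17), STAT3 (-0.0015 on both TPM scales) and TOP2A (-0.29 to 0.052, turned without AXL_shRNA P15). Of 113 called genes given with values, 113 were called with DESeq2, 113 with the block and 99 against a fold of 1.5. These genes were chosen mostly among those whose call held, so these counts do not measure how stable calls are in general. The median interval reached 0.54 log2 units to either side, so smaller differences are mostly not detectable here.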

Other observations

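Further gene lists gave these counts in AXL_shRNA minus TP0903. Over all tested genes, 15% were higher and 15.1% lower. BCL2 family genes were higher at 5 of 20 members and lower at 1, and mucins at 2 of 9 and 1. Integrated stress response and ATF4 targets were higher at 6 of 45 and lower at 5, and EGF receptor ligands at 2 of 9 and 3. Aldehyde dehydrogenases were higher at 3 of 18 and lower at 4, and clustered histone genes at 1 of 20 and 5. A549 and alveolar markers were higher at 5 of 14 and lower at 2. Of the fibrinogen, acute phase and complement genes, 7 of 23 were higher (3 higher without AXL_shRNA P15, 1 without TP0903 P17) and 0 lower. Their median was 1.99, but 3.10 in P15 minus P17 and 0.65 in P3 minus P4. Of the insulin-type growth factors and binding proteins, 8 of 17 were higher (5 higher without AXL_shRNA P15, 3 without TP0903 P17) and 1 lower (4 higher and 2 lower on log2(TPM + 1)). Of the matrix metalloproteinases and their inhibitors, 7 of 24 were higher (4 higher without AXL_shRNA P3, TP0903 P17 or TP0903 P4) and 5 lower (4 higher and 6 lower on log2(TPM + 1)). Of the CDK inhibitors and G1 regulators, 7 of 19 were higher (3 higher without TP0903 P17 or TP0903 P4) and 4 lower. Of the receptor tyrosine kinases, 5 of 23 were higher (0 higher without AXL_shRNA P15 or TP0903 P17, 3 without TP0903 P4) and 2 lower (2 higher and 3 lower on log2(TPM + 1)). Of the Notch pathway genes, 5 of 23 were higher (3 higher without AXL_shRNA P15, TP0903 P17 or TP0903 P4) and 1 lower (5 higher and 4 lower on log2(TPM + 1), 8 higher and 1 lower with DESeq2). Among ABC transporters 5 of 27 were higher and 5 lower (9 higher and 5 lower with DESeq2). That is near the background (18.5% higher and 18.5% lower, against 15% and 15.1% of all tested genes). ABCA12, a lipid transporter of skin, was at 100.3 and 57.96 CPM in AXL_shRNA against 12.4 and 9.49 CPM in TP0903 (log2 difference 2.86, SE 0.38, adjusted p = 0.0026), and ABCC5, which exports nucleotides, at 116 and 118 CPM in AXL_shRNA against 57.1 and 59.96 CPM in TP0903 (log2 difference 1.00, SE 0.09, adjusted p = 0.00099). In edgeR's fit the B cell gene CD79A was higher in AXL_shRNA, at 3.05 and 1.31 CPM in AXL_shRNA against 0.401 and 0.205 CPM in TP0903 (log2 difference 2.83, SE 0.57, adjusted p = 0.01). That call was lost, adjusted p in brackets, without AXL_shRNA P15 (0.054) or TP0903 P4 (0.068). The B cell marker MS4A1 was at 0 in every library, and the part of other cells in CD79A was not tested.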
